A study of Homo sapiens with 12 samples.

Results

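The genes that build the DNA replication fork, from the proteins that mark origins to those that assemble chromatin behind the fork, were examined together with FAM111A in Huh7 cells in which its paralog FAM111B was silenced. Huh7 is a human hepatocellular carcinoma (HCC) cell line. The members were 52 genes listed by name (origin licensing, helicase, clamp, polymerase, fork protection and chromatin assembly genes, with FAM111A), and all 52 were found among the 60666 genes of the deposited table. The knockdown cells (shFAM111B) had been transduced with a lentivirus that carries a short hairpin RNA against FAM111B and selected with puromycin, and the control cells (NC) belonged to the control group of the labels. RNA sequencing of poly(A)-selected RNA gave 3 NC and 3 shFAM111B libraries, with expression given as TPM, a unit scaled by transcript length and by the total of each library. Only 1 hairpin sequence is considered here, and the labels do not say whether the 3 libraries of a group came from separate cultures, so the p-values measure the spread between these libraries. The depth behind the TPM is unknown, and the Hep3B libraries of the series were not analysed here.

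Before S phase, the origin recognition complex, CDC6 and CDT1 load the MCM2-7 helicase onto DNA. CDC45 and the GINS complex then activate it, polymerase alpha-primase lays down primers, and polymerases delta and epsilon extend them while held on DNA by PCNA, a ring-shaped clamp that the RFC complex opens and closes. FAM111A is a serine protease that binds PCNA and acts at forks that meet proteins covalently trapped on DNA. FAM111B is a related protease, and the genes of the pair lie next to each other. In proliferating cells many replication genes are transcribed before S phase under the control of E2F factors, so their mRNA is also commonly read as a sign of how many cells are cycling.

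The hairpin sequence is shown against FAM111A because the pair of genes are related and adjacent. FAM111B spans chr11:59107185-59127410 and FAM111A chr11:59142748-59155039 (GRCh38, plus strand for both). The 19 bases of the hairpin target match FAM111B in its last exon, within the coding sequence of all 5 transcripts that hold it, at chr11:59124545-59124563, and match no other gene of the annotation. The most similar stretch of FAM111A lies at chr11:59154469-59154487, in exon 4 of 4 of transcript FAM111A-201 and outside its coding sequence, and differs at 7 of 19 bases, which are printed in capitals.
shFAM111B target in FAM111B: ctgcctagtgattctcatt
closest stretch of FAM111A: AtgTTATgtATttctcatt
Over the 52 members the most similar stretch had between 5 and 8 mismatches. The 4 members with 5 mismatches were CLSPN, MCM2, ORC4 and WDHD1.

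The target itself was examined first. FAM111B stood at 7.84, 8.29 and 7.99 TPM in the 3 NC libraries and at 0.96, 1.13 and 0.84 TPM in the 3 shFAM111B libraries. Every knockdown library lay far below every control library, and the mean fell to 12.2% of control (log2 fold change −2.20 ± 0.11 SE, adjusted p = 6.1e-06; exact permutation test of 3 against 3 libraries, two-sided p = 0.1, the smallest this design allows). FAM111A was measured at 10.74, 12.03 and 12.41 TPM in NC and at 10.75, 9.59 and 11.01 TPM in shFAM111B cells. The groups overlapped, because NC library 1 lay within the range of the knockdown libraries. The log2 fold change of FAM111A was −0.15 ± 0.09 (95% confidence interval −0.38 to 0.07, adjusted p = 0.18; exact permutation p = 0.3), which did not pass the test. Its sign depended on the scale, and with the median of each library subtracted it became 0.38 with an adjusted p of 0.0094. With TPM over nuclear protein-coding genes it was −0.27 with an adjusted p of 0.031, a call in the other direction. The mean TPM of FAM111A in the knockdown was 89.1% of control.

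PCNA, the clamp that FAM111A binds, had the highest mean of the members in the controls. It was measured at 332.16, 339.02 and 330.80 TPM in NC and at 244.13, 257.97 and 232.25 TPM in shFAM111B cells. All knockdown libraries lay below all controls, at 73.3% of the control mean. PCNA fell by 0.45 on the log2 scale (SE 0.05, adjusted p = 0.00015, exact permutation p = 0.1, the smallest possible). After subtracting the library medians the difference was 0.09, in the other direction, and did not pass (adjusted p = 0.19). As in any bulk sample, fewer cells of a kind and less RNA per cell cannot be told apart in these values.

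**Figure D1:**
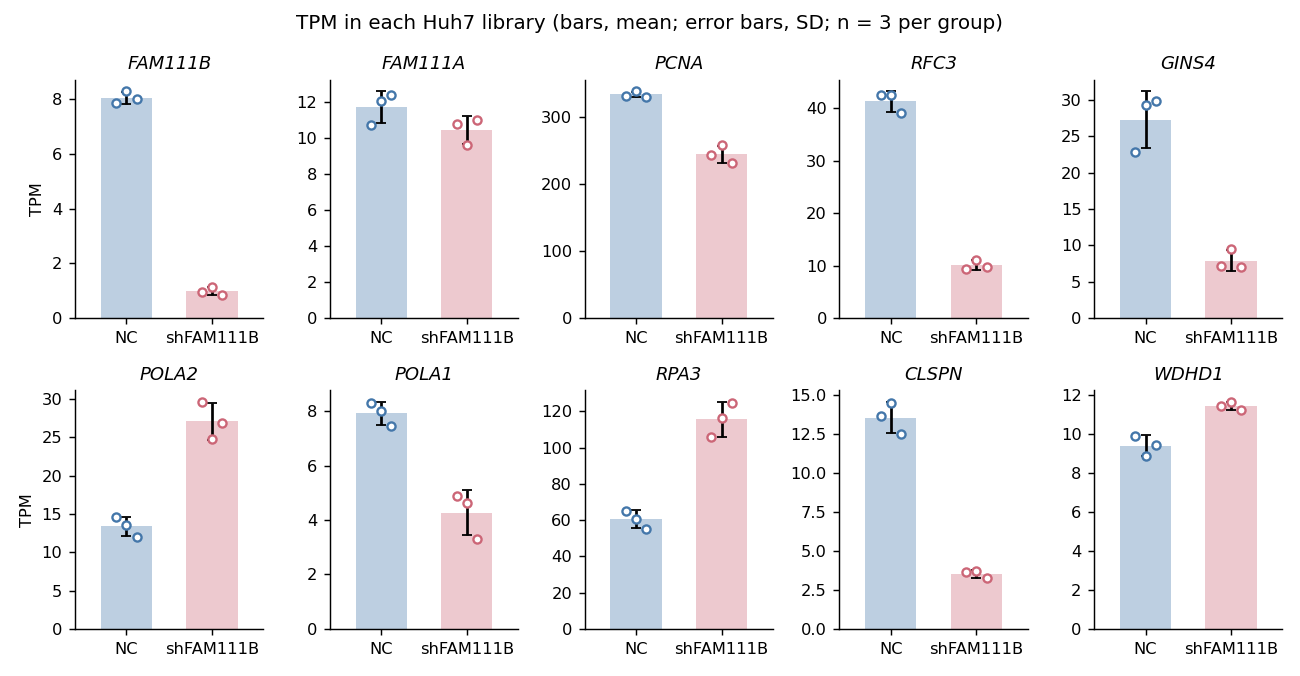
TPM of 10 genes (vertical axis, each panel with its own scale from 0) in the 3 NC and 3 shFAM111B libraries; points are libraries, bars are means and error bars are SD. The FAM111B knockdown libraries lie between 0.84 and 1.13 TPM, FAM111A overlaps between the groups, and POLA2, RPA3 and WDHD1 are higher while the other 6 are lower in every shFAM111B library.

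The libraries and the scale of the values bear on all results below. The fit by limma covered 14394 genes, those that reached 1 TPM in 3 or more of the libraries, and all 52 members passed this filter. The knockdown changed much of the table: 50.9% of the tested genes were lower and 21.1% higher at an adjusted p under 0.05, and the median log2 fold change of all tested genes was −0.36. Transcripts of the 13 mitochondrial protein-coding genes took 194350, 194154 and 189116 TPM in NC and 72621, 74465 and 69675 TPM in shFAM111B cells, so a smaller share of each knockdown library came from them. Ribosomal RNA genes took 2850, 2489 and 1056 TPM in NC, and 35926, 53091 and 2567 TPM in shFAM111B libraries 1, 2 and 3, so knockdown library 3 stood apart from the other two on this measure. The part of these shares in the results was not tested. Measured against the NC mean, the median log2 difference of the members was −0.39, −0.40 and −0.45 in shFAM111B libraries 1, 2 and 3. Without shFAM111B replicate 3 the counts given next were 34 lower and 3 higher.

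Of the 52 members, 33 were lower (63.5%, against 50.9% of all tested genes) and 5 were higher (9.62%, against 21.1%) at an adjusted p under 0.05, and 14 did not pass in either direction. The members that rose were POLA2, POLD1, RPA3, WDHD1 and TOP2A. With a change of at least 2-fold on the log2(TPM + 1) scale, 10 members were lower (19.2%, against 23.7% of all tested genes) and none was higher (against 6.77%). The 10 were RFC1, RFC3, MCM4, GINS4, MCM8, MCM10, POLD3, CLSPN, TOP1 and SPRTN. In mean TPM, without the added 1, POLA2 was at 203% and ORC1 at 46.7% of control, but both fell just short of 2-fold on the log2(TPM + 1) scale. In 36 members every knockdown library lay below every control (69.2%, against 52.8% of tested genes), and in 4 every knockdown library lay above (7.69%, against 22.5%). The median log2 fold change was −0.42 for the members and −0.36 for all tested genes, and 28 members lay below and 24 above that general median.

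Relative to the library medians the picture was divided. The share of higher genes among all calls of the table was 29.4% on the deposited scale and 58.7% after each library median was subtracted. After this subtraction, 24 members were higher (46.2%, against 41.6% of tested genes) and 15 were lower (28.8%, against 29.4%). The subtraction moves the log2 fold change of every gene up by the same amount. The 14 members that did not pass on the deposited scale, which lay near 0 there, were all among the 24 called higher here. The median log2 fold change after it was 0.17 for all tested genes and 0.11 for the members, so higher on this scale does not mean above the typical gene. The sign of the difference depended on the scale for 24 of the 52 members, and the other 28 kept it on 6 scales (TPM as deposited, median-of-ratios, upper-quartile, quantile, library medians subtracted and TPM over nuclear protein-coding genes). With a trend on transcript length and expression removed, described further on, POLA1 and POLE of these 28 also changed sign. Called on all 6 scales were 15 lower members (RFC1, RFC3, ORC1, CDC6, MCM2, MCM4, MCM5, GINS1, GINS4, MCM8, MCM10, POLD3, CLSPN, TOP1 and SPRTN) and 3 higher members (POLA2, POLD1 and RPA3), and CDC6 and MCM8 of these were not called with the trend removed. RFC5, ORC2, ORC6, GINS3, POLA1, POLE and CHAF1B kept the sign of their fall on the 6 scales but were not called on at least 1 of them. Signs and calls over the 6 scales were not counted for all tested genes, so no general rate stands beside these member counts. Summed over the members, expression was 2938 ± 42.5 TPM in NC and 2367 ± 21.9 TPM in shFAM111B cells (SD, n = 3), or 80.5% of control.

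**Figure D2:**
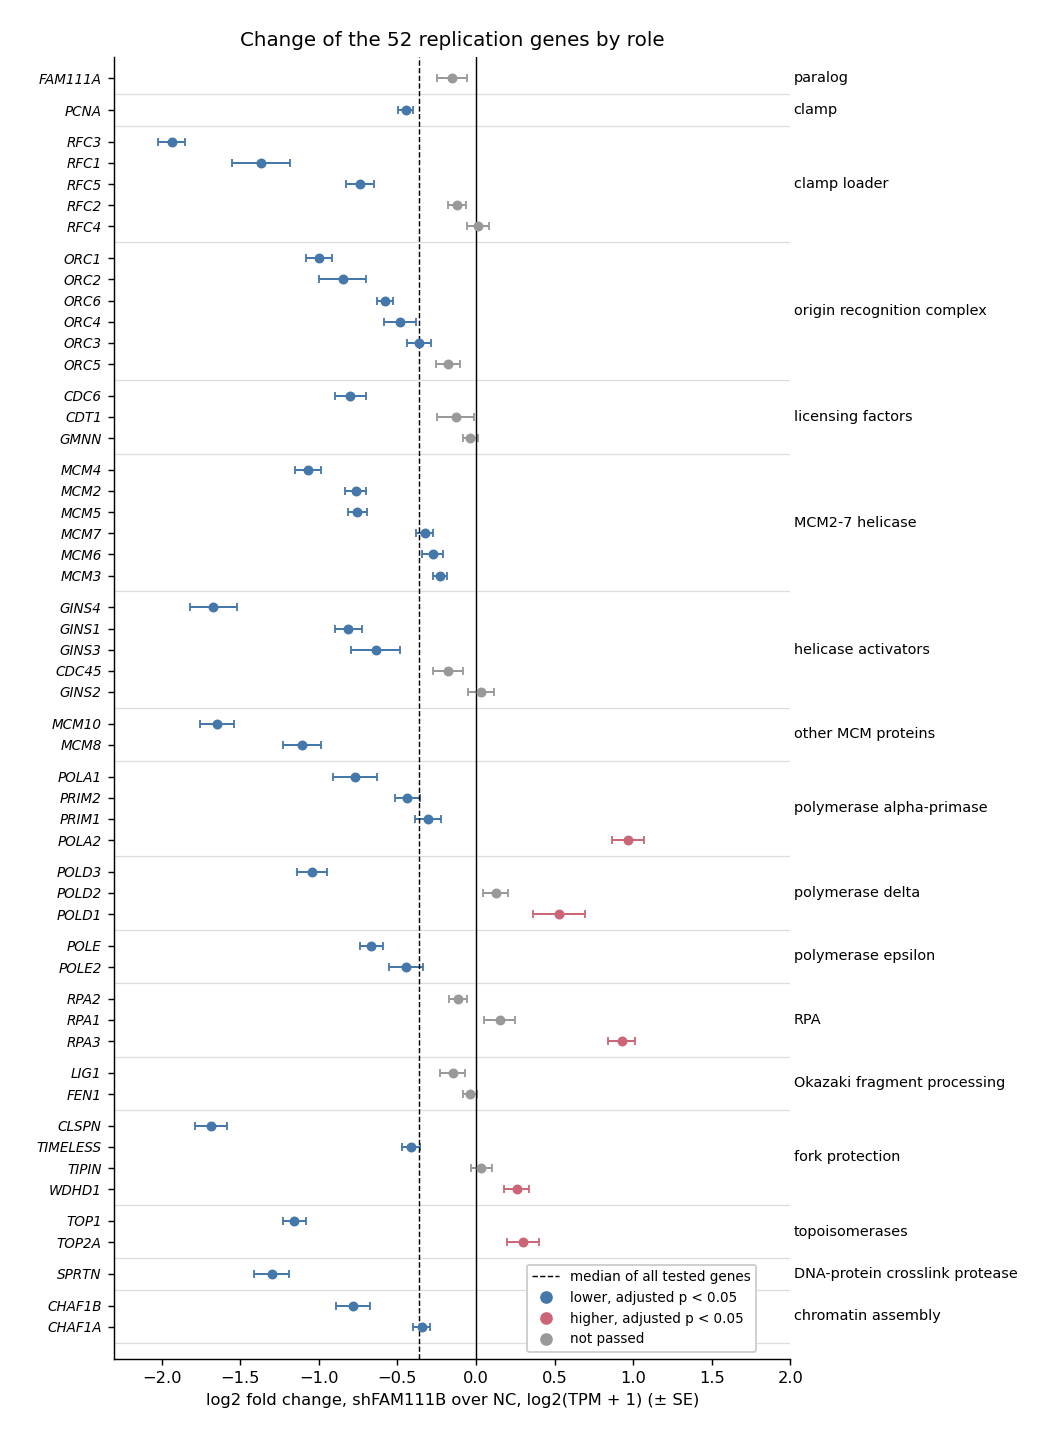
Log2 fold change (shFAM111B over NC, horizontal axis, on log2(TPM + 1), ± SE, n = 3 per group) of the 52 members by role. Blue points are lower, red points higher and grey points not passed at an adjusted p under 0.05; the dashed line is the median of all tested genes at −0.36. The members range from −1.94 (RFC3) to 0.97 (POLA2).

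In the clamp loader, RFC1 is the large subunit and RFC2 to RFC5 are the small ones. RFC3 stood at 42.48, 42.48 and 39.10 TPM in NC and at 9.36, 11.15 and 9.74 TPM in shFAM111B cells. The groups were widely separated, and RFC3 fell by 1.94 on the log2 scale (SE 0.08, adjusted p = 3.7e-06), more than any other member. RFC1 fell to 37.6% and RFC5 to 58.2% of control. RFC2 was at 91.9% and RFC4 at 101% of control, and neither passed the test. RFC4 exceeded RFC3 in TPM 1.85 ± 0.14 times in NC and 7.66 ± 0.81 times in shFAM111B cells (SD, n = 3).

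The origin recognition complex (ORC) binds origins, and 5 of its 6 genes fell on the deposited scale (50.9% of all tested genes were lower there). Of these, ORC3 and ORC4 were on the positive side after the library medians were subtracted. ORC1, the subunit that is renewed in each cell cycle, was at 15.08, 15.28 and 14.44 TPM in NC and at 6.98, 7.42 and 6.52 TPM in shFAM111B cells. No library crossed between the groups (46.7% of the control mean, log2 SE 0.08, adjusted p = 3.9e-05). ORC2 fell to 51.9%, ORC6 to 66.4%, ORC4 to 69.9% and ORC3 to 77.1% of control, and ORC5 was at 88.1%, which did not pass. Only ORC1 of the 6 was also called lower on the 6 scales named above.

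Of the licensing factors, CDC6, the ATPase that joins ORC to recruit the helicase, was at 43.52, 42.56 and 45.01 TPM in NC and at 27.95, 25.18 and 21.33 TPM in shFAM111B cells. The groups did not overlap, and CDC6 fell by 0.80 on the log2 scale (SE 0.10, adjusted p = 0.00028), but was not called with the trend removed (−0.11, adjusted p = 0.34). CDT1, which brings MCM2-7 to the origin, and its inhibitor geminin (GMNN) did not pass. Their means were at 90.4% and 97.5% of control.

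All 6 subunits of the MCM2-7 helicase fell on the deposited scale, by unequal amounts (50.9% of all tested genes were lower there). MCM3, MCM6 and MCM7 reversed after the library medians were subtracted. MCM4 was at 144.04, 175.37 and 153.02 TPM in NC and at 74.96, 69.63 and 78.61 TPM in shFAM111B cells. It showed the largest decline of the 6 (log2 fold change −1.07 ± 0.08, adjusted p = 3.1e-05). MCM2 was at 100.70, 104.35 and 117.41 TPM in NC and at 63.72, 62.15 and 62.12 TPM in shFAM111B cells, a fall by 0.77 (SE 0.07, adjusted p = 4.7e-05). MCM5 was at 75.64, 78.04 and 80.51 TPM in NC and at 45.13, 48.96 and 43.57 TPM in shFAM111B cells, a fall by 0.75 on the log2 scale (SE 0.06, adjusted p = 3.4e-05). These 3 subunits separated the groups completely and were called lower on the 6 scales named above.

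The remaining helicase subunits moved less. MCM3 was at 101.92, 108.17 and 105.70 TPM in NC and at 88.59, 90.98 and 89.03 TPM in shFAM111B cells (log2 fold change −0.23 ± 0.05, adjusted p = 0.0029). MCM6 was at 57.10, 53.03 and 58.63 TPM in NC and at 43.54, 48.66 and 46.64 TPM in shFAM111B cells (log2 fold change −0.28 ± 0.07, adjusted p = 0.0072). MCM7 was at 306.62, 317.96 and 333.58 TPM in NC and at 257.71, 240.88 and 265.15 TPM in shFAM111B cells (log2 fold change −0.33 ± 0.05, adjusted p = 0.0013). Each was lower in every knockdown library, and the reversed values of these 3 were 0.30, 0.26 and 0.21.

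The proteins of this ring work in equal numbers, but their mRNA levels per length did not lie close together. MCM7 was the highest in all 6 libraries and exceeded the lowest subunit 5.37 to 6.0 times in NC and 4.95 to 6.09 times in shFAM111B cells. MCM4 ranked the second in every NC library and the third, after MCM3, in every shFAM111B library. The summed TPM of the 6 subunits was 824 ± 33.4 in NC and 573 ± 11.9 in shFAM111B cells (SD, n = 3), 69.6% of control.

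CDC45 and the 4 GINS proteins bind the loaded ring to form the active helicase. GINS4 was at 22.77, 29.28 and 29.78 TPM in NC and at 7.18, 9.52 and 6.97 TPM in shFAM111B cells. The highest knockdown value lay well under the lowest control value, and GINS4 fell by 1.67 on the log2 scale (SE 0.15, adjusted p = 5.4e-05). GINS1 fell to 55.8% of control. GINS3 fell to 62.5% but was not called on the median-of-ratios, upper-quartile, quantile and library-median scales (adjusted p between 0.19 and 0.57) or with the trend removed (0.56). GINS2 was at 102% and CDC45 at 88.3%, and neither passed. GINS2 therefore went from 0.62 ± 0.07 times the TPM of GINS4 in NC to 2.19 ± 0.40 times in shFAM111B cells (SD, n = 3).

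MCM10, which helps the helicase to start unwinding, was at 23.52, 23.37 and 24.15 TPM in NC and at 7.37, 7.63 and 5.79 TPM in shFAM111B cells. It lost most of its expression in all 3 knockdown libraries (log2 fold change −1.65 ± 0.11, adjusted p = 1.4e-05). MCM8, which acts with MCM9 in recombination repair, had the lowest group means of the members. These were 6.97 ± 0.91 TPM in NC and 2.68 ± 0.12 TPM in shFAM111B cells (SD, n = 3), although CHAF1B was lower in NC libraries 1 and 2. MCM10 and MCM8 were called lower on the 6 scales named above, but MCM8 was not with the trend removed (−0.19, adjusted p = 0.19).

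Within polymerase alpha-primase, 1 gene rose and 3 fell (21.1% and 50.9% of all tested genes). POLA2, the accessory subunit of polymerase alpha, was at 14.58, 13.52 and 12 TPM in NC and at 29.64, 24.76 and 26.83 TPM in shFAM111B cells. Every knockdown library was far above every control, and POLA2 rose to 203% of control (log2 fold change 0.97 ± 0.10, adjusted p = 0.00011), the largest rise of the 52. POLA1, the catalytic subunit of the same enzyme, was at 8.29, 8.01 and 7.45 TPM in NC and at 4.87, 4.61 and 3.32 TPM in shFAM111B cells. It was lower in all 3 libraries (log2 fold change −0.77 ± 0.14, adjusted p = 0.0020), but not called on the median-of-ratios, quantile and library-median scales (adjusted p = 0.051, 0.15 and 0.17), and at 0.086 with the trend removed. The primase genes PRIM1 and PRIM2 fell to 80.7% and 72.0% of control. After the library medians were subtracted both had the opposite sign. There PRIM1 was called higher (0.23, adjusted p = 0.046) and PRIM2 did not pass (0.097, adjusted p = 0.28). POLA2 shares its strand and position with a gene named AP000944.2 in the annotation, and PRIM1 with NACA, so reads of these pairs could be split between them. In all, 7 of the 52 members overlap another gene on their strand and 19 on the opposite strand (RPA3 overlaps UMAD1, for example), and the 15 listed pseudogene copies of members reached at most 0.73 TPM.

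In polymerase delta, the catalytic subunit POLD1 was at 46.96, 42.74 and 54.65 TPM in NC and at 74.29, 54.07 and 83.64 TPM in shFAM111B cells. The ranges overlapped, since shFAM111B library 2 lay just below NC library 3, and the rise of 0.53 ± 0.17 on the log2 scale (adjusted p = 0.024) was not called when NC library 1 or 2, or shFAM111B library 1 or 3, was left out (adjusted p between 0.060 and 0.079). POLD3, which stabilises the complex, was at 14.24, 13.27 and 12.23 TPM in NC and at 6.13, 6.07 and 5.53 TPM in shFAM111B cells. This subunit fell without overlap (log2 fold change −1.04 ± 0.09, adjusted p = 5.7e-05). POLD2 was at 109% of control and did not pass. POLD1 overlaps AC020909.1 and POLD3 overlaps AP001372.2 on the same strand.

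POLE, the catalytic subunit of the leading-strand polymerase epsilon, was at 40.73, 45.93 and 43.92 TPM in NC and at 25.84, 26.24 and 29.15 TPM in shFAM111B cells. It fell by 0.67 on the log2 scale (SE 0.07, adjusted p = 0.00017), with no overlap. Its partner POLE2 fell to 71.7% of control, and had the opposite sign after the library medians were subtracted. POLE was not called on that scale (adjusted p = 0.16) and was at 0.15 with the trend removed.

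RPA coats single-stranded DNA at the fork. Its smallest subunit, RPA3, was at 65.20, 60.61 and 55.29 TPM in NC and at 105.75, 116.50 and 124.88 TPM in shFAM111B cells. The groups were separated by a wide gap, and RPA3 rose to 192% of control (log2 fold change 0.93 ± 0.08, adjusted p = 6.1e-05). RPA1 and RPA2 did not pass, at 111% and 92.3% of control. RPA3 and RPA2 were measured at near-equal TPM in NC (ratio 1.01 ± 0.07) and at a ratio of 2.09 ± 0.14 in shFAM111B cells (SD, n = 3).

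FEN1 and LIG1, which trim and seal Okazaki fragments, were at 97.4% and 90.0% of control and did not pass, but both were called higher after the library medians were subtracted (0.49, adjusted p = 6.7e-05, and 0.38, adjusted p = 0.0051). FEN1 overlaps FADS2 on the same strand. Their ratio was 5.16 ± 0.40 in NC and 5.60 ± 0.64 in shFAM111B cells, and the libraries overlapped.

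Of the genes that protect the moving fork, CLSPN (claspin, which passes the checkpoint signal from ATR to CHK1) was at 13.68, 14.54 and 12.52 TPM in NC and at 3.63, 3.71 and 3.25 TPM in shFAM111B cells. It kept 26.0% of its control expression (log2 fold change −1.69 ± 0.10, adjusted p = 9.7e-06). WDHD1, which ties polymerase alpha to the helicase, was at 9.91, 8.85 and 9.43 TPM in NC and at 11.45, 11.64 and 11.24 TPM in shFAM111B cells. The knockdown libraries all lay above the controls (log2 fold change 0.26 ± 0.08, adjusted p = 0.022), but the call was lost without NC library 2 (adjusted p = 0.074), without shFAM111B library 1 (0.059) or without shFAM111B library 2 (0.057), and with TPM over nuclear protein-coding genes (0.21). The WDHD1 call was also lost with the replicate number as a block in the fit (adjusted p = 0.052). TIMELESS fell to 74.7% of control, with the opposite sign after the library medians were subtracted, and its partner TIPIN was at 103%, which did not pass.

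Topoisomerases relieve the twisting of DNA ahead of the fork and separate the daughter molecules behind it. TOP1 was at 74.39, 71.32 and 71.57 TPM in NC and at 31.92, 35.15 and 29.12 TPM in shFAM111B cells, with a fall by 1.15 on the log2 scale (SE 0.08, adjusted p = 1.4e-05). TOP2A was at 70.40, 69.13 and 60.17 TPM in NC and at 75.91, 76.81 and 94.34 TPM in shFAM111B cells. All knockdown values of TOP2A exceeded the controls (log2 fold change 0.30 ± 0.10, adjusted p = 0.033), but the call was lost without NC library 2 (adjusted p = 0.056), NC library 3 (0.10) or shFAM111B library 3 (0.064), and with TPM over nuclear protein-coding genes (0.11). The TOP2A call was also lost with the replicate number as a block in the fit (adjusted p = 0.073). SPRTN, a protease that like FAM111A acts on proteins trapped on DNA, fell to 35.8% of control (log2 fold change −1.30 ± 0.11, adjusted p = 5.1e-05).

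CHAF1A and CHAF1B encode subunits of the factor that deposits histones on new DNA. CHAF1B was at 7.61, 6.53 and 7.05 TPM in NC and at 3.43, 3.93 and 3.70 TPM in shFAM111B cells. It fell without overlap (log2 fold change −0.78 ± 0.11, adjusted p = 0.00044), but was not called after the library medians were subtracted (−0.25, adjusted p = 0.065) or with the trend removed (−0.06, adjusted p = 0.64), while CHAF1A fell to 78.2% of control and had the opposite sign after the library medians were subtracted. CHAF1B overlaps MORC3 on the same strand.

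Because a ratio of 2 genes within a library does not depend on how the library is scaled by a single factor, the members of each group were also set against each other. In each of the 14 groups with at least 2 members, the member with the highest log2 fold change was divided by the one with the lowest. These pairs were picked by their change, so the values describe how far a group spread and were not tested. WDHD1 over CLSPN changed 4.67-fold between the group means, RFC4 over RFC3 4.15-fold, POLA2 over POLA1 3.86-fold, GINS2 over GINS4 3.57-fold and POLD1 over POLD3 3.29-fold. The smallest changes of this kind were those of FEN1 over LIG1 (1.08-fold) and POLE2 over POLE (1.16-fold). In 12 of the 14 pairs the ratio in every shFAM111B library exceeded that in every NC library.

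**Figure D3:**
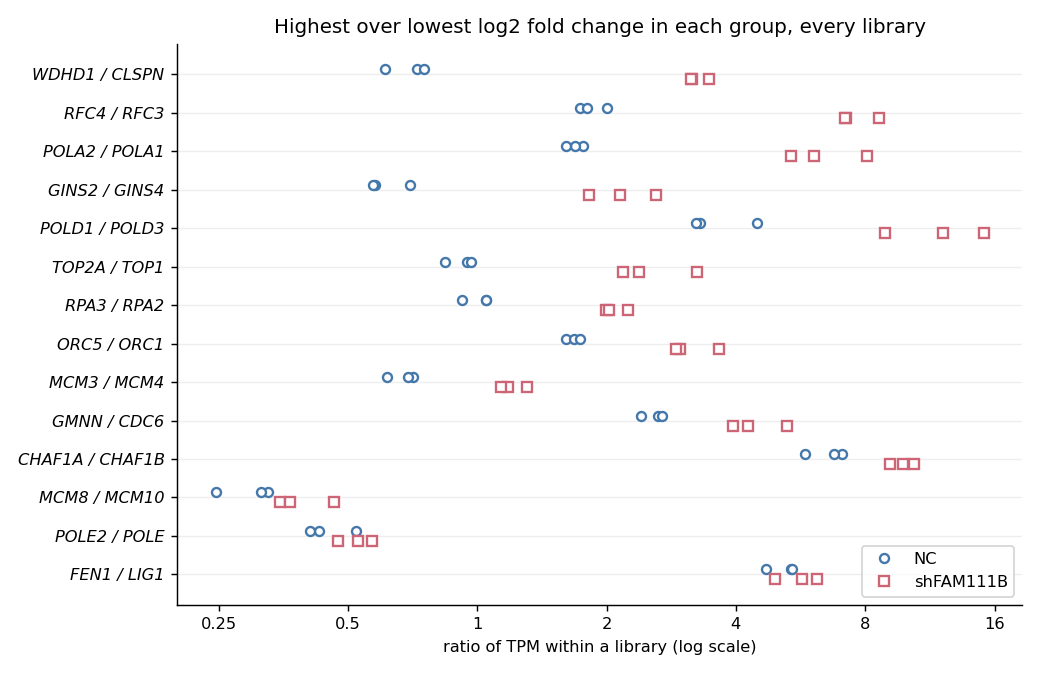
Ratio of TPM (horizontal axis, log scale) between the member with the highest and the member with the lowest log2 fold change in each of 14 groups, in each library; circles are NC and squares shFAM111B libraries. The circles and squares are apart for 12 pairs and interleave for POLE2 over POLE and FEN1 over LIG1.

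The order of the members by level was largely kept. Across the 52 members the mean TPM of the groups had a Spearman correlation of 0.920, which is a description over genes that share libraries. In NC the highest were PCNA (334 TPM), MCM7 (319 TPM) and FEN1 (187 TPM). MCM7 (255 TPM) and PCNA (245 TPM) led in shFAM111B cells, and their libraries overlapped in both groups. The median level of the members was 42.4 TPM in NC and 27.8 TPM in shFAM111B cells.

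The length of the transcript, which did not enter the choice of members, went with the change. Among members of at most 2000 nt in their longest annotated transcript, 0 of 9 rose and 4 fell (41.6% and 21.2% of all tested genes of that length), and the median change was −0.12 (log2), against 0.27 for the 3721 tested genes of that length. Between 2000 and 4000 nt, 16 of 25 members fell and 3 rose (50.7% and 19.6% of all tested genes of that length), with a median of −0.35 against −0.31. Above 4000 nt, 13 of 18 members fell and 2 rose (72.1% and 8.37% of all tested genes of that length), with a median of −0.76 against −0.81 for the 5376 tested genes of that length. The median of the short members lay below that of genes of their length, and the medians of the longer classes lay near theirs. The Spearman correlation of length and change was −0.34 over the 52 members and −0.46 over 14263 tested genes, again as a description over genes of the same libraries.

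With the trend on length and expression removed, 12 members were higher (23.1%, against 31.1% of tested genes) and 21 were lower (40.4%, against 32.9%), and their median was −0.11. FAM111A, whose longest transcript has 6189 nt, was then at 0.80 (adjusted p = 0.00023), and PCNA, with 1359 nt, at −0.76 (adjusted p = 2.2e-05). RFC3 was at −1.64 and POLA2 at 1.6 on this scale. The part of length in the results on the deposited scale was not tested further.

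**Figure D4:**
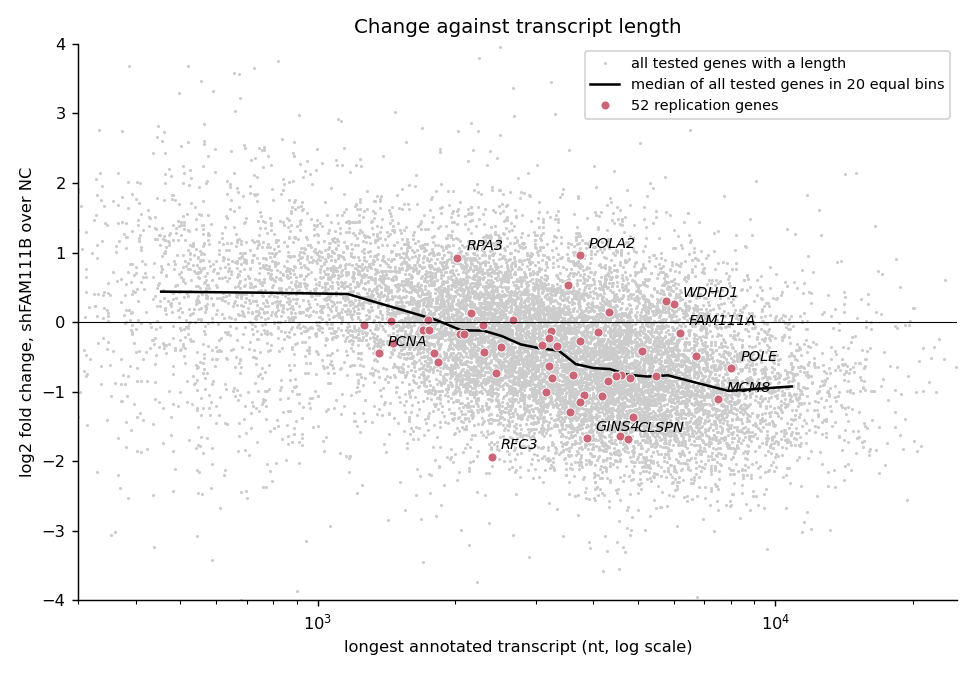
Log2 fold change (shFAM111B over NC, vertical axis) against the longest annotated transcript (nt, horizontal axis, log scale). Grey points are tested genes with a known length, the line is their median in 20 bins of equal size, and red points are the 52 members; genes up to 2000 nt have a median of 0.27 and genes above 4000 nt of −0.81.

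Promoters were read to see what the members share in sequence. RefSeq (GRCh38.p14) gave the bases from 250 before to 50 after the start of 46 of the 52 members. An E2F motif (TTTGGCGC, TTTCGCGC, TTTCCCGC or TTTGCCGC on either strand, overlapping matches counted apart) was present in 19 of the 46 (41.3%), against 3.33% of all 27305 promoters and 5.54% of the 10126 promoters of tested genes. The CHR motif of genes expressed late in the cell cycle (TTTGAA or TTCGAA, either strand) was present in 3 of the 46 (6.52%), against 16.6% of all promoters and 11.6% of those of tested genes. A match is a description of the letters and not a bound site. The stretches below show motifs, in capitals, with 8 bases on either side, of members that fell on the deposited scale and of POLA2, which rose. These stretches lie on the strand of the gene, before its RefSeq start. PCNA, MCM3 and MCM6 had the opposite sign after the library medians were subtracted.
PCNA, chr20:5126666-5126689, minus strand: cgtcagggGCGGGAAAaggcgtgc
RFC3, chr13:33818086-33818109, plus strand: tggagctcGCGGGAAAacttgtct
POLA1, chrX:24693773-24693796, plus strand: atcacaggGCGCCAAAcgcgcgtc
POLA2, chr11:65261901-65261924, plus strand: gctcccggTTTCGCGCatgcgtgc
MCM3, chr6:52284901-52284924, minus strand: atggtacgTTTCCCGCcaccgcgg
MCM6 held 4 matches, which overlap in pairs on opposite strands, and is shown whole with 20 bases on either side.
MCM6, chr2:135876502-135876615, minus strand: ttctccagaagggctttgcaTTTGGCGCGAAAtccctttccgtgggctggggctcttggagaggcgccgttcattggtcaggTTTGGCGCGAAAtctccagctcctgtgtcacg

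PCNA and RFC3 carried the same 8 letters at 59 and 55 bases before the start, and stood at 73.3% and 24.4% of control. POLA1 and POLA2 each held 1 match and moved in opposite directions on the deposited scale, but POLA1 was at 0.086 with the trend removed. Of the 19 members with an E2F motif, 15 were lower and 1, POLA2, was higher (50.9% and 21.1% of all tested genes), and the median change was −0.45 (log2). Of the 27 without one, 14 were lower and 3 were higher, with a median of −0.31. After the library medians were subtracted, the 19 counted 6 lower and 7 higher and the 27 counted 5 lower and 15 higher (29.4% and 41.6% of all tested genes). The lowest values of these sets were −1.94 (RFC3) and −1.65 (MCM10). FAM111A had no E2F match in this window.

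Genes around the fork were described by lists chosen for their role. All tested genes were lower in 50.9% and higher in 21.1% on the deposited scale, and lower in 29.4% and higher in 41.6% after the library medians were subtracted, and the counts below stand beside these shares. Of 31 other replication genes, 17 were lower and 7 higher, and their median change was −0.50 (log2); after the library medians were subtracted 13 were lower and 12 higher. HLTF, a helicase-like enzyme that remodels stalled forks, fell to 7.65% of control (log2 fold change −2.79 ± 0.13, adjusted p = 4.4e-06). POLE3, a small subunit of polymerase epsilon, fell to 32.4%, and RIF1, which controls when origins fire, fell to 20.7% of control. Among those that rose were 2 of the 3 ribonuclease H2 subunits, RNASEH2A (220% of control) and RNASEH2C (238%), and POLE4 (250%), a further small subunit of polymerase epsilon. The remaining ribonuclease H2 subunit, RNASEH2B, fell to 70.1% of control (adjusted p = 0.0021). It was at 0.036 after the library medians were subtracted, which did not pass (adjusted p = 0.73). RNASEH2A, RNASEH2B, RNASEH2C and POLE4 were picked after their values were seen.

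The E2F targets outside the fork, most of them genes of nucleotide supply, repair and entry into S phase, counted 20 lower and 3 higher of 28 (all tested genes 50.9% and 21.1%), with a median of −0.84, and 16 lower and 9 higher after the library medians were subtracted (all tested genes 29.4% and 41.6%). USP1, which removes ubiquitin from PCNA, fell to 26.4%, and UHRF1, which maintains DNA methylation, to 27.5% of control. The 3 that rose were PCLAF, a small protein that binds PCNA, at 385% of control, E2F1 itself at 122% and the helicase BLM at 127%. The calls of E2F1 and BLM were lost with TPM over nuclear protein-coding genes (adjusted p = 0.066 and 0.078), and that of BLM also without NC library 1 or 2 (0.062 and 0.063) or shFAM111B library 3 (0.056). TYMS and TK1, enzymes of thymidylate supply, were at 101% and 98.3% of control and did not pass. These 5 genes were picked after their values were seen.

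Genes of G2 and mitosis were lower in 19 and higher in 4 of 25 (all tested genes 50.9% and 21.1%), with a median of −1.06, and 15 were lower and 7 higher after the library medians were subtracted (29.4% and 41.6%). MKI67, the antigen used to mark cycling cells, fell to 22.0%, BUB1B, a spindle checkpoint kinase, to 21.5%, and TPX2, a spindle factor, to 47.8% of control. The 4 that rose were AURKB, UBE2C, TACC3 and BIRC5, named here for that reason, and AURKB and UBE2C were at −0.023 and −0.063 with the trend removed. The members of the replication fork, with a median of −0.42, thus lay nearer to the general median of −0.36 than these cell cycle genes did. In the replication checkpoint, 7 of 10 genes were lower and none higher (median −0.48; all tested genes 50.9% and 21.1%), against 3 lower and 4 higher after the library medians were subtracted (29.4% and 41.6%). WEE1, the kinase that restrains CDK1, fell to 23.5%, CHEK1 to 52% and RAD1, part of the checkpoint clamp, to 57.8% of control.

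The identity of the cells was checked by markers. Hepatocyte markers were present in all libraries: albumin (ALB) was measured at 6422, 6492 and 6419 TPM in NC and at 4139, 4356 and 3988 TPM in shFAM111B cells. All 10 passed the filter, of which 4 were higher and 6 lower (21.1% and 50.9% of all tested genes). The list summed to 28244 ± 287 TPM in NC and 43652 ± 2577 TPM in shFAM111B cells (SD, n = 3), with AFP, at 7045 to 7411 TPM in NC and 21853 to 25038 TPM in shFAM111B cells, as its most abundant gene. The 6 fibroblast, 4 endothelial and 5 leukocyte markers summed to 10.6 ± 1.12, 1.84 ± 0.53 and 20.8 ± 1.53 TPM in NC and to 17.3 ± 3.20, 2.75 ± 0.68 and 25.2 ± 1.24 TPM in shFAM111B cells (SD, n = 3). Of those that passed the filter, 2 of 3 fibroblast markers (COL1A2 and LUM), 0 of 1 endothelial and 1 of 2 leukocyte markers (CD68) were called higher and none lower (all tested genes 21.1% and 50.9%). The most abundant genes of the 3 lists were COL1A2, PECAM1 and CD68, and KDR was listed at 0 in every library. The part of these markers in the results was not tested.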

How the data were processed

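Huh7 libraries (3 NC, 3 shFAM111B) were grouped by their labels. The members and the gene lists were chosen with earlier results of these data known. The authors deposited TPM per library, which per the labels' processing notes involved RSEM, DESeq2 and hg38; versions and settings are not given in the sources used here. The table also holds group means and the authors' own fold changes and p-values, which were not used. Genes below 1 TPM in more than 3 of the 6 libraries were left out, and log2(TPM + 1) was compared in limma 3.58.1 (lmFit, eBayes with trend, no covariates, R 4.3.3). The Benjamini-Hochberg adjustment ran over all 14394 genes tested, and fold changes are on the log2(TPM + 1) scale, which understates changes of low genes. TPM carry no depth, so no counting error was given. The fit was run on simulated data without the general shift seen here, as a check of the procedure only. Within groups libraries correlated at 0.969 to 0.984, and between groups at 0.865 to 0.883. Positions and lengths came from GENCODE 29, which matched 96.3% of the listed genes, and promoters from RefSeq. The paper gives a TruSeq kit and the labels a stranded kit, so the use of strand in counting is unknown. Values were given in every library for FAM111B, FAM111A, PCNA, MCM2 to MCM7 and, in each role group of at least 2, the member with the largest rise and the largest fall among those called; from the other lists the 3 genes with the smallest p were named, except that a named item is not reported here. Alternatives were other filters, pseudocounts and scalings, a replicate block, a length trend and leaving out each library. Protein sequences were not used here.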

Additional observations from a re-analysis of the deposited data

How the results depend on the processing

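On other scales (median-of-ratios, upper-quartile, quantile, library medians subtracted, TPM over nuclear protein-coding genes, length and expression trend removed), in this order, the median of the members was 0.019, −0.021, −0.10, 0.11, −0.55 and −0.11, the number lower 20, 21, 23, 15, 41 and 21 and the number higher 21, 17, 12, 24, 3 and 12. The median of all tested genes in this order was 0.028, −0.0062, −0.030, 0.17, −0.49 and −0.015, and the median of the members lay below it on each scale. All tested genes (14394, and 14263 with the trend removed) counted 5071, 5241, 5293, 4225, 7915 and 4696 lower. They counted 5151, 4937, 4675, 5995, 2608 and 4437 higher. With a 2-fold change the number of members lower was 4, 4, 5, 4, 11 and 1 and the number higher 2, 2, 2, 3, 0 and 2. All tested genes then counted 1792, 1912, 1846, 1305, 4201 and 1300 lower and 2016, 1892, 1673, 2574, 863 and 1361 higher. FAM111A was at 0.26, 0.23, 0.37, 0.38, −0.27 and 0.80, past the threshold on all of these but the upper-quartile scale. On median-of-ratios, upper-quartile and library-median scales PCNA was at 0.0056, −0.035 and 0.085, none past the threshold (adjusted p = 0.93, 0.60 and 0.19). There MCM3 was at 0.22, 0.18 and 0.30, MCM6 at 0.17, 0.13 and 0.26, and MCM7 at 0.13, 0.087 and 0.21. Of these, MCM6 on the upper-quartile scale did not pass (adjusted p = 0.11). MCM7 did not pass on the median-of-ratios and upper-quartile scales (0.059 and 0.16). On the quantile scale PCNA was at −0.66 and MCM7 at −0.54. With the trend removed, MCM3 was at 0.073, MCM6 at 0.21, POLA1 at 0.086 and POLE at 0.15. Calls higher among all calls made up 29.4% as deposited, 50.4%, 48.5%, 46.9% and 58.7% on the first 4 scales, 24.8% over nuclear protein-coding genes and 48.6% with the trend removed. The cause of these shifts was not tested beyond the choice of scale. Without a filter 2 members were higher, and with a pseudocount of 0.1, 1 was higher by 2-fold. Leaving out 1 library gave 2 to 4 higher members, 33 to 34 lower, 0 to 1 higher by 2-fold, 9 to 11 lower by 2-fold and a median of −0.43 to −0.36. The NC and shFAM111B libraries share replicate numbers. Same-numbered libraries deviated together weakly (correlations 0.054, 0.035 and 0.091), and those of different numbers had correlations from −0.076 to 0.044. The numbers were not taken as pairs in the main fit. With the replicate block 3 members were higher and 33 lower (WDHD1 and TOP2A were not called). An unadjusted P under 0.05 with a 2-fold change gave 10 lower and 0 higher members on the deposited scale, and 4 and 2 on the median-of-ratios scale. All tested genes counted 3409 lower and 981 higher, and 1798 and 2030, on these scales.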
